A study of Mus musculus with 2 samples.

Results

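The transcript of *Ttn*, the gene for titin, was mapped for the RNA that Mbnl2 contacts in mouse quadriceps muscle. *Ttn* is 1 of the 37310 genes of the mm9 GENCODE vM1 annotation and was taken by name. Its tags are the CLIP fragments on the minus strand of chromosome 2 that overlap the gene body, from 76542037 to 76820604, which gave 424 tags in WT muscle and 1519 tags in *Mbnl1* KO muscle. In HITS-CLIP, UV light fixes a protein to its RNA in the tissue, and the RNA fragments pulled down with an antibody, here mAb 3B4 against Mbnl2, are sequenced. The study asked whether Mbnl2 takes over RNA targets of Mbnl1 once Mbnl1 is lost. Quadriceps came from WT and *Mbnl1* KO (Mbnl1-/-) mice of 15 to 16 weeks. The knockout allele lacks exon 3 of *Mbnl1* in every tissue, the labels give the strain of both genotypes as C57BL/6, and the methods name a C57BL/129 background for the compound knockouts bred from the same allele. Both genotypes keep *Mbnl2*, and the sex of the mice was not given in the sources used here. The study reported more Mbnl2 protein in *Mbnl1* KO than in WT muscle, and a stronger Mbnl2 band in its CLIP of *Mbnl1* KO quadriceps. How far this enters the ratios below was not tested. Lysates were treated with RNase A at 38.6 or 0.0386 U/ml, and the tables do not say which tag came from which. The 3 mice of each genotype are merged into 1 table, so no spread between mice, no test and no p-value can be given.

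Each table lists unique tags with the number of sequenced reads collapsed into each. There were 343554 WT tags (5176203 reads) and 476543 *Mbnl1* KO tags (50329234 reads). Tags whose reference sequence is at least 70% a single base, called single-base tags here, made up 44.05% of WT tags and 17.0% of *Mbnl1* KO tags, and this difference enters any ratio that is scaled to the table totals. In *Ttn* they were rare, with 7 of 424 WT tags and 9 of 1519 *Mbnl1* KO tags. Of the lists of cell type markers, 8 skeletal muscle fibre genes held 395 WT and 1341 *Mbnl1* KO tags, and 3 cardiomyocyte genes held 5 and 3, with *Nppa* at 0 in both. Fibroblast genes also held many tags, 143 and 596 over 3 genes, most of them in *Col1a1*. The other lists, of 2 genes each, held 29 and 73 (endothelium), 7 and 6 (macrophage), 3 and 5 (neuron and Schwann cell) and 1 and 13 (adipocyte). The part of other cells in the *Ttn* results was not tested. The *Mbnl1* gene itself held 100 WT and 452 *Mbnl1* KO tags, and its exon with the start codon, chromosome 3 from 60332678 to 60333726, held 5 and 2. Where the deleted segment lies in mm9 was not given in the sources used here, and that exon is too thinly covered to check the labels.

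Titin is the giant elastic protein of the sarcomere. A single molecule is anchored at the Z-disc, runs through the I-band, where immunoglobulin domains and the PEVK segment (rich in proline, glutamate, valine and lysine) extend under stretch, continues along the thick filament in the A-band through fibronectin type III and immunoglobulin domains, and ends with a kinase domain and the M-band. The length of the I-band spring is set by alternative splicing of I-band exons, the many small PEVK exons among them. Muscleblind proteins are zinc-finger splicing regulators that bind YGCY in RNA (Y is a pyrimidine, so the DNA letters are CGCC with its variant CGCT, then TGCC with its variant TGCT, searched here on the transcript strand only), often in introns beside the exons they regulate, and they also bind 3′ UTRs.

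The longest coding transcript of the annotation has 347 exons, of which 346 code for 105.639 kb, and the gene body measures 278.568 kb. The annotation holds 26 *Ttn* transcripts, among them 3 distinct full-length coding forms with 346, 312 and 191 of these exons. Regions were set on the coding exons of the longest form, in transcript order. The Z-disc part takes coding exons 1 to 27, the I-band before PEVK exons 28 to 132, PEVK exons 133 to 204, the I-band after PEVK exons 205 to 233, the A-band exons 234 to 340 and the M-band the last 6 coding exons, and each intron goes with the exon before it. The Z-disc edge is approximate, and the exon of 5437 nt that holds the kinase domain (coding exon 340, 76546833 to 76552269) is counted with the A-band. PEVK begins at the first 5 coding exons in a row in which PEVK residues make up at least 60%. Most of coding exons 109 to 131 also reach 60%, but no 5 in a row do. The start of PEVK is thus a choice, and it was not moved in the alternatives.

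*Ttn* carried the most tags of the 3881 protein-coding genes with at least 20 tags, in each table. Its 424 WT tags were 0.123% of the WT table (95% Clopper-Pearson interval 0.112 to 0.136), a normalised tag count of 1234 per 1000000 tags, and its 1519 *Mbnl1* KO tags were 0.319% of that table (0.303 to 0.335), a normalised count of 3188. The *Mbnl1* KO/WT ratio of tags per table total was 2.58 (2.32 to 2.88). Intervals come from the exact binomial interval of the KO share of tags, cover counting error only and compare these libraries, not the genotypes. The level of *Ttn* RNA was not measured in these libraries, so more binding per transcript and more transcript, or more muscle fibre RNA in the sample, cannot be told apart. Counted as sequenced reads, *Ttn* held 35633 of the WT reads (0.688%) and 368937 of the *Mbnl1* KO reads (0.733%), a ratio of 1.06. A few read-rich tags weigh on that count, since the 10 richest tags held 63.0% of the WT reads of *Ttn* and 29.2% of the *Mbnl1* KO reads. With single-base tags left out the tag ratio was 1.78 (1.60 to 1.99), and when each tag also had to hold 2 or more reads it was 1.33 (1.16 to 1.54).

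Beside other genes the rise in *Ttn* was moderate. The median ratio over the 3881 genes was 1.75, 41.7% of them reached a ratio of at least 2, and *Ttn* lay at the 73.0 percentile. Scaled to the median gene, a setting chosen after seeing the data, its ratio was 1.48 (1.33 to 1.65). The number of tags partly follows the length of the gene. Per kb of gene body *Ttn* ranked 140 of 3881, with 6.97 tags per kb over both tables against a median of 0.406.

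**Figure D1:**
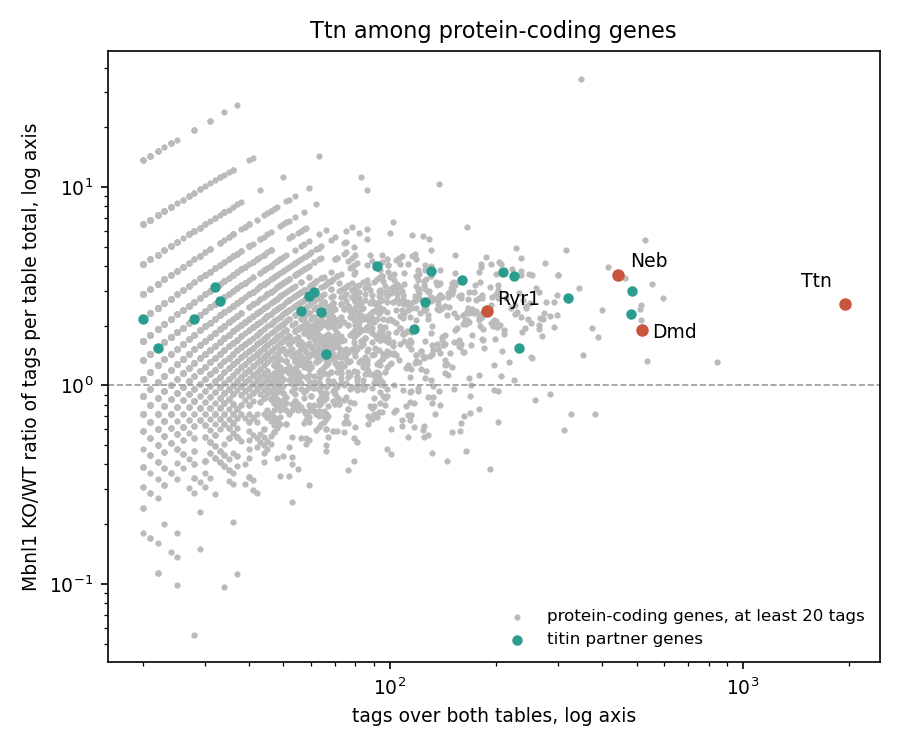
*Mbnl1* KO/WT ratio (vertical, log axis) against the tags over both tables (horizontal, log axis) for the protein-coding genes with at least 20 tags, with titin partner genes in green and *Ttn*, *Neb*, *Ryr1* and *Dmd* in red. The 3 genes with 0 tags in a table are not drawn. *Ttn* stands alone at the right at a ratio of 2.58, within the range of ratios of other genes with many tags.

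By part of the transcript, the coding exons of *Ttn* held most tags in WT muscle, and introns took a larger share in *Mbnl1* KO muscle. Coding exons held 259 WT tags (61.1%, 56.3 to 65.8) and 749 *Mbnl1* KO tags (49.3%, 46.8 to 51.9). Introns held 133 WT tags (31.4%, 26.98 to 36.02) and 604 *Mbnl1* KO tags (39.8%, 37.3 to 42.3), and these intervals do not overlap, although they do when tags of equal position are collapsed (26.7 to 36.4 and 35.5 to 41.4) or tags of equal 5′ end (26.2 to 36.1 and 34.9 to 41.1). The 3′ UTR, which is 1051 nt long, held 29 WT tags (6.84%, 4.63 to 9.68) and 145 *Mbnl1* KO tags (9.55%, 8.11 to 11.1), where they do. With tags of equal 5′ end collapsed the 3′ UTR held 5.63% and 5.67%. Tags in exons of other *Ttn* transcripts numbered 2 and 21, and the 5′ UTR held 1 and 0. These shares rest on *Ttn* tags alone and do not depend on the table totals.

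The *Mbnl1* KO/WT ratio was 2.08 (1.81 to 2.41) in coding exons, 3.27 (2.71 to 3.98) in introns and 3.60 (2.41 to 5.57) in the 3′ UTR. Per length, the 3′ UTR was the most densely tagged part, with 80.3 normalised tags per kb in WT and 289.5 in *Mbnl1* KO muscle, against 7.14 and 14.9 in coding exons and 2.39 and 7.84 in introns. All 3 ratios were lower when single-base tags or tags of 1 read were dropped, and higher when short tags, under 30 nt, were. In coding exons it was 1.03 (0.855 to 1.24) when single-base tags and tags of 1 read were both dropped, and 0.567 when reads were counted in place of tags, and in the 3′ UTR it was 1.53 (0.929 to 2.66) and 1.90. In introns it was 1.91 (1.48 to 2.49) and 4.49. The share of *Ttn* reads in coding exons was 83.4% in WT and 44.4% in *Mbnl1* KO muscle, and that in introns 10.8% and 45.7%. The richest WT tag, of 20 nt in coding exon 56 (76736545 to 76736564), alone held 13.6% of the WT reads of *Ttn*.

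**Figure D2:**
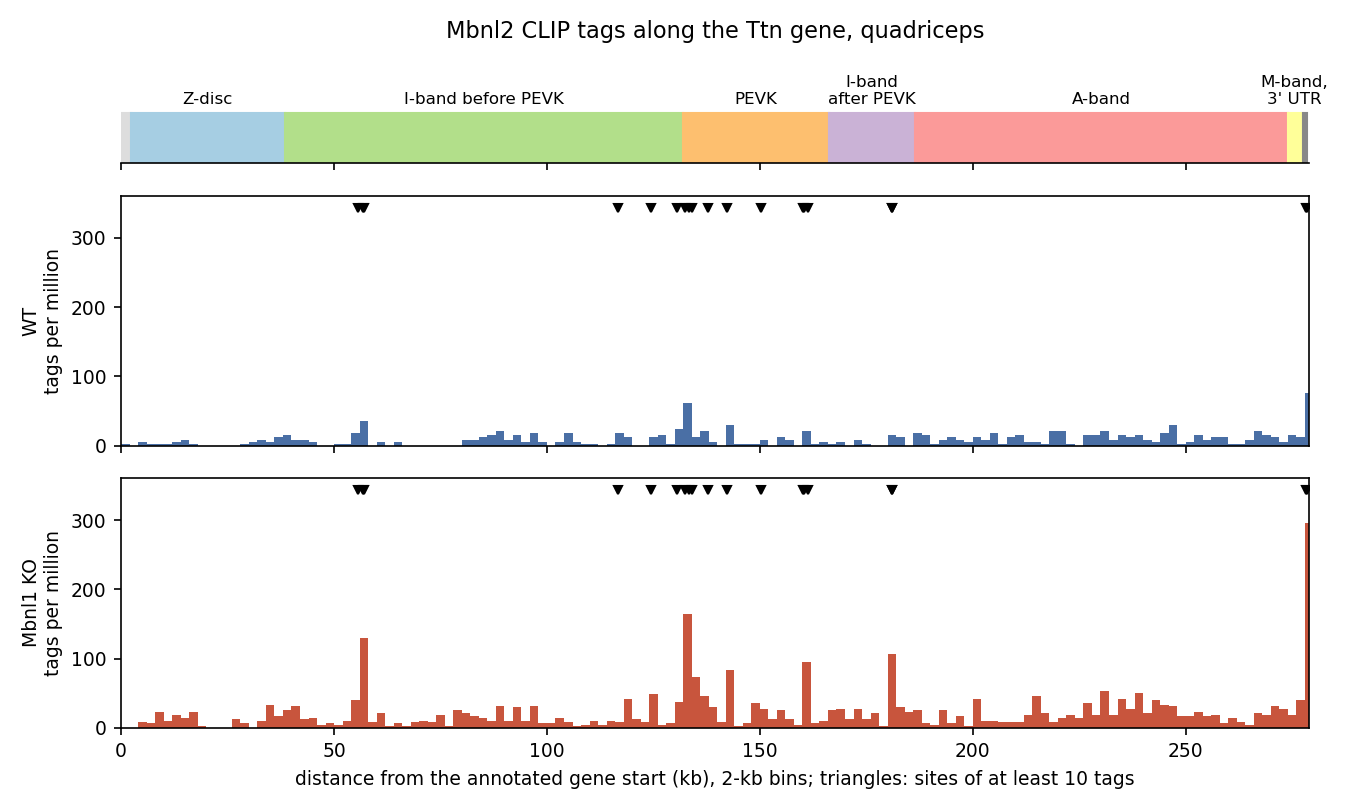
Normalised tag count in bins of 2 kb (vertical) along the *Ttn* gene in kb from the annotated gene start (horizontal), in WT (blue) and *Mbnl1* KO muscle (red), under the sarcomere regions; the triangles mark the 19 sites of at least 10 tags. Tall bins lie at sites in the I-band and at the end of the transcript, while no A-band bin exceeds 29.1 in WT or 52.5 in *Mbnl1* KO muscle.

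Tags that overlap on the strand, pooled over both tables, formed 758 runs, of which 346 were a single tag and 19 held at least 10 tags. These 19 sites are named here by rank in tag number. They held 21.5% of WT and 24.5% of *Mbnl1* KO tags in 0.429% of the gene body. Of the 19, 16 lay in introns, 2 in the 3′ UTR and 1 over the 5′ splice site of a coding exon. By region, 17 lay in the I-band, 9 of them in PEVK, and 0 in the Z-disc, A-band or M-band parts. The largest run of the A-band held 8 tags, in coding exon 308, and the largest of the M-band held 6.

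The sequences of the intronic and splice-site sites among the 10 largest show what Mbnl2 tags covered. They are printed as RNA strand in DNA letters, 5′ to 3′, from the mm9 genome, minus strand of chromosome 2, with each YGCY in capitals.
Site 2, PEVK, 76687248 to 76687322: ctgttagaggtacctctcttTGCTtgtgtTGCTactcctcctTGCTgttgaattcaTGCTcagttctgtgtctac
Site 3, I-band before PEVK, 76763551 to 76763642: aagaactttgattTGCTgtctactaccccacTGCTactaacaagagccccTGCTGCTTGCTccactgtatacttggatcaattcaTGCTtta
Site 5, PEVK, 76688207 to 76688335: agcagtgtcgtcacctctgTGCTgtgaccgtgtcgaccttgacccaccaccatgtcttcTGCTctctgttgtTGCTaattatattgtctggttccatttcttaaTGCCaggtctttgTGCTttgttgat
Site 6, PEVK, 76678184 to 76678262: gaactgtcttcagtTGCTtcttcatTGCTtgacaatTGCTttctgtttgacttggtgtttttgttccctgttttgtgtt
Site 7, PEVK, 76686442 to 76686512: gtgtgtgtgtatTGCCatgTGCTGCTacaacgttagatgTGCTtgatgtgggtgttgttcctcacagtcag
Site 8, I-band after PEVK, 76639557 to 76639631: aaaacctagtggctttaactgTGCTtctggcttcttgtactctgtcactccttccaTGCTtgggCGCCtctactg
Site 9, I-band before PEVK, 76763730 to 76763779: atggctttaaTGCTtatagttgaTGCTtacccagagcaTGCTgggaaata
Site 10, I-band before PEVK, 76690046 to 76690088: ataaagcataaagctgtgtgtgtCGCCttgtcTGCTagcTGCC

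Site 2 was the largest site outside the 3′ UTR, with 15 WT and 46 *Mbnl1* KO tags (ratio 2.21, 1.21 to 4.26). Its first 9 nt are the end of coding exon 136 (76687314 to 76687391, 78 nt), a PEVK exon held by 2 of the 3 full-length forms, and its other 66 nt are the start of the next intron, which is 185 nt long. All 4 of its motifs are TGCT and lie on the intron side. That intron held 14 WT and 42 *Mbnl1* KO tags that touch no exon, so few tags of site 2 cross the splice site. Site 3, in the intron of 5479 nt after coding exon 43, held 9 WT and 29 *Mbnl1* KO tags (2.32, 1.07 to 5.58). It has 6 motifs, and 0.113% of all windows of its length in *Ttn* introns hold as many. That intron also contains site 9, with 1 and 14 tags (10.1, 1.54 to 427), and site 19, with 2 and 8, and it held 17 WT and 91 *Mbnl1* KO tags in all, the most of any intron.

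Sites 5, 6 and 7 lay in PEVK introns between exons that 2 of the 3 full-length forms hold. Site 5 takes up 129 of the 218 nt of the intron after coding exon 134 and had 4 WT and 21 *Mbnl1* KO tags (3.78, 1.28 to 15.2). Site 6 begins 27 nt after coding exon 152 and had 6 and 18 tags (2.16, 0.822 to 6.66). Site 7 ends 28 nt before coding exon 139 and had 4 and 19 tags (3.42, 1.14 to 13.8). In all 3 sites tags were more numerous in *Mbnl1* KO muscle, but for site 6 the interval of the ratio includes 1.

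Site 8, in the intron of 1650 nt after coding exon 224, had 1 WT and 21 *Mbnl1* KO tags (15.1, 2.43 to 626), the highest finite ratio of the 19, and it rests on a single WT tag. Site 10 had 4 and 8 tags (1.44, 0.386 to 6.54), which does not separate the libraries. Site 15 in PEVK had 0 WT and 10 *Mbnl1* KO tags. Against the floor of 3 tags that a count of 0 allows, it was at least 2.40-fold higher, and the lower bound of its counting interval, which also covers the error of the 10 tags, was 1.62. As sites were taken by tags pooled over both tables, a site with 0 WT tags could enter only through the *Mbnl1* KO table. Sites with few WT tags, such as sites 4, 5, 7, 8 and 9, also reached 10 tags by *Mbnl1* KO tags alone. Their ratios are thus partly set by this choice. Site 18 had 6 WT and 4 *Mbnl1* KO tags, and 8 of those 10 were single-base tags over a run of A.

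Over the 19 sites the median ratio was 2.88, also with site 15 at its bound. The choice of sites by pooled tags, most of them from *Mbnl1* KO muscle, enters this value and the counts below. Runs over the genome were taken by the same cut. Normalised tag counts were higher in *Mbnl1* KO muscle at 18 sites, all but site 18, beside 48.5% of the 5795 runs of at least 10 tags over the whole genome. Leaving out single-base tags gave 17 of 18, beside 76.1% of runs, and with tags of at least 2 reads 8 of 8, beside 71.4%. The interval lay above 1 at 9 of 19 sites, beside 17.9% of these runs, at 5 of 18 with single-base tags left out (21.2% of runs) and at 2 of 8 with tags of at least 2 reads (10.4%). Of the 19, 15 reached a ratio of at least 2, against 31.4% of the runs over the genome, whose median was 0.865. With single-base tags left out, 9 of 18 *Ttn* sites reached 2, against 45.6% of 2458 runs with a median of 1.97. With tags of at least 2 reads, 4 of 8 reached 2, against 38% of 1280 runs. The 18 and 8 sites of these settings are too few to set *Ttn* apart from the genome or to show that they are alike.

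**Figure D3:**
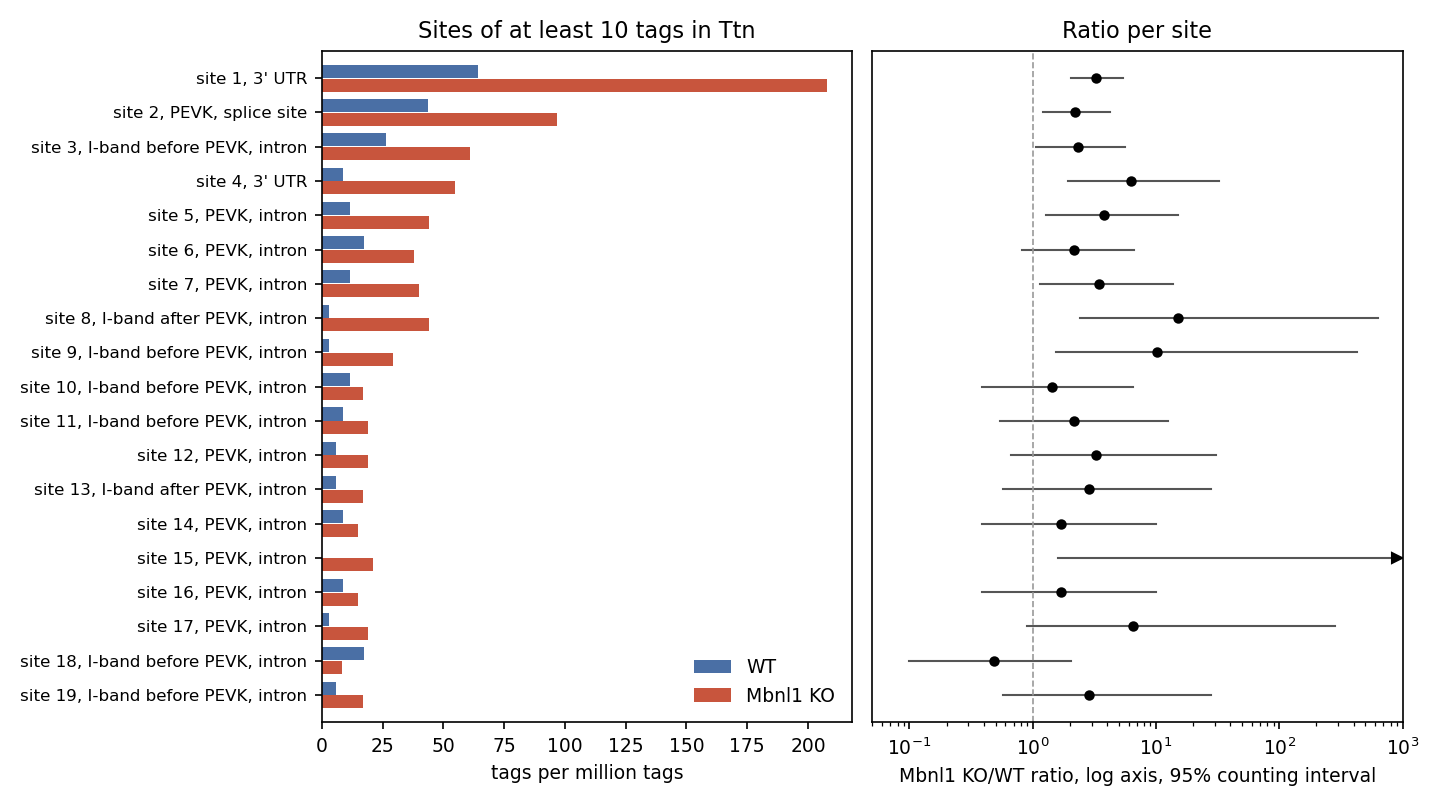
The 19 sites of at least 10 tags, ordered by tags over both tables. The left panel gives the normalised tag count in WT (blue) and *Mbnl1* KO muscle (red), and the right panel gives the ratio with its 95% counting interval on a log axis, with the dashed line at 1. Site 18 is the exception below 1, and the arrow marks site 15, which had 0 WT tags.

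Most of the motifs at these sites were TGCT. The 17 sites outside the 3′ UTR held 44 YGCY, of which 37 were TGCT, 3 TGCC, 3 CGCC and 1 CGCT, and 16 sites held at least 1 TGCT. TGCT is also the commonest form in *Ttn* introns as a whole. There, 12.7% of windows of 27 nt hold TGCT, 7.44% TGCC, 1.21% CGCT and 0.957% CGCC. Intronic sites had 4.21 YGCY per 100 nt against 0.977 over all *Ttn* introns and 1.16 over its coding exons. Not every site was rich in it. Intronic sites with a single motif held no more than 25.2% to 37.5% of intronic windows of their length do. The introns of PEVK, with 1.06 per 100 nt, were close to those of the Z-disc (1.04) and the I-band before PEVK (1.03), while introns of the I-band after PEVK had 0.835 and those of the A-band 0.746. Single tags showed the same feature. Of the intronic tags, 64.7% in WT (55.9 to 72.7) and 64.1% in *Mbnl1* KO muscle (60.1 to 67.9) held a YGCY, while 18.9% and 20.9% of all intronic windows of the same lengths do. Outside the 19 sites the motif was in 34 of 68 WT tags (37.6% to 62.4%) and 48.2% of 361 *Mbnl1* KO tags (42.9 to 53.5). In coding exons the shares were 37.8% and 33.0% against 22.2% and 23.5% of windows. So the tags of both genotypes held the motif to a similar degree, and more often in introns than in exons.

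The 3′ UTR held the largest site of the transcript. Site 1, at 76542029 to 76542143, held 22 and 99 tags in WT and *Mbnl1* KO muscle (3.24, 2.03 to 5.41) and runs past the annotated end of the gene. The last 100 nt, which are 9.51% of the 3′ UTR, held 75.9% of the WT and 68.3% of the *Mbnl1* KO tags of the 3′ UTR. This stretch contains the letters AATAAA, the signal for cleavage and polyadenylation, 22 nt before the gene end (76542059 to 76542064). It is the 1 match in the 3′ UTR, and 1.79% of all windows of 30 nt in *Ttn* hold these letters. They were covered by 19 WT and 73 *Mbnl1* KO tags. Site 4, from 76542280 to 76542332, had 3 and 26 tags (6.25, 1.91 to 32.3). The 30 nt around the deepest position of each site are given with YGCY in capitals.
Site 1, 76542037 to 76542066: aaaataaagcaagctatctgcacctcaaaa
Site 4, 76542289 to 76542318: ccaggtgcagctccTGCCttgtgtggtagt
The window of site 1 contains no YGCY and that of site 4 contains 1. Of the 3′ UTR tags that lie within the gene, 12.5% of 24 WT tags (2.66 to 32.4) and 31.2% of 109 *Mbnl1* KO tags (22.7 to 40.8) held the motif, against 22.1% and 25.3% of windows. Unlike in introns, the 3′ UTR tags were thus not set apart from other windows by YGCY.

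Along the sarcomere regions, coding exons were least densely tagged in PEVK, while PEVK introns were the most densely tagged. In WT coding exons, the density was 8.92 normalised tags per kb in the Z-disc part, 7.32 in the I-band before PEVK, 1.80 in PEVK, 5.65 in the I-band after PEVK, 7.52 in the A-band and 9.83 in the M-band. In *Mbnl1* KO muscle these were 19.6, 13.7, 7.14, 21.7, 14.7 and 23.6. PEVK exons, 72 in number with a median of 84 nt, were the lowest in both tables, with 4 WT and 22 *Mbnl1* KO tags. Of the 72, only 4 are held by all 3 full-length forms.

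PEVK introns held 63 WT and 288 *Mbnl1* KO tags in 27.803 kb, 6.60 and 21.7 normalised tags per kb. A few introns with sites weigh on this density. Those after coding exons 136, 152 and 199 held 14, 9 and 7 WT tags and 42, 25 and 43 *Mbnl1* KO tags. Introns of the I-band before PEVK held 51 and 204 tags in 60.475 kb, at 2.45 and 7.08, and those of the I-band after PEVK held 5 and 71 in 13.891 kb, at 1.05 and 10.7, so these regions rank differently in WT and in *Mbnl1* KO muscle. Introns of the A-band, of similar total length to those of PEVK (28.303 kb), held 10 and 18 tags, at 1.03 and 1.33. Z-disc introns held 4 and 19 tags, at 0.426 and 1.46. In all, the I-band took 89.5% of WT (83.0 to 94.1) and 93.2% of *Mbnl1* KO intronic tags (90.9 to 95.1), from 102.169 kb of the 161.74 kb of intron. PEVK was the region where intronic density exceeded exonic density in both tables. In PEVK, 7.84% of positions begin a 20-mer that occurs more than once in *Ttn*, against 1.59% over the gene, so that tags there may be placed less surely, and their part in the result was not tested.

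**Figure D4:**
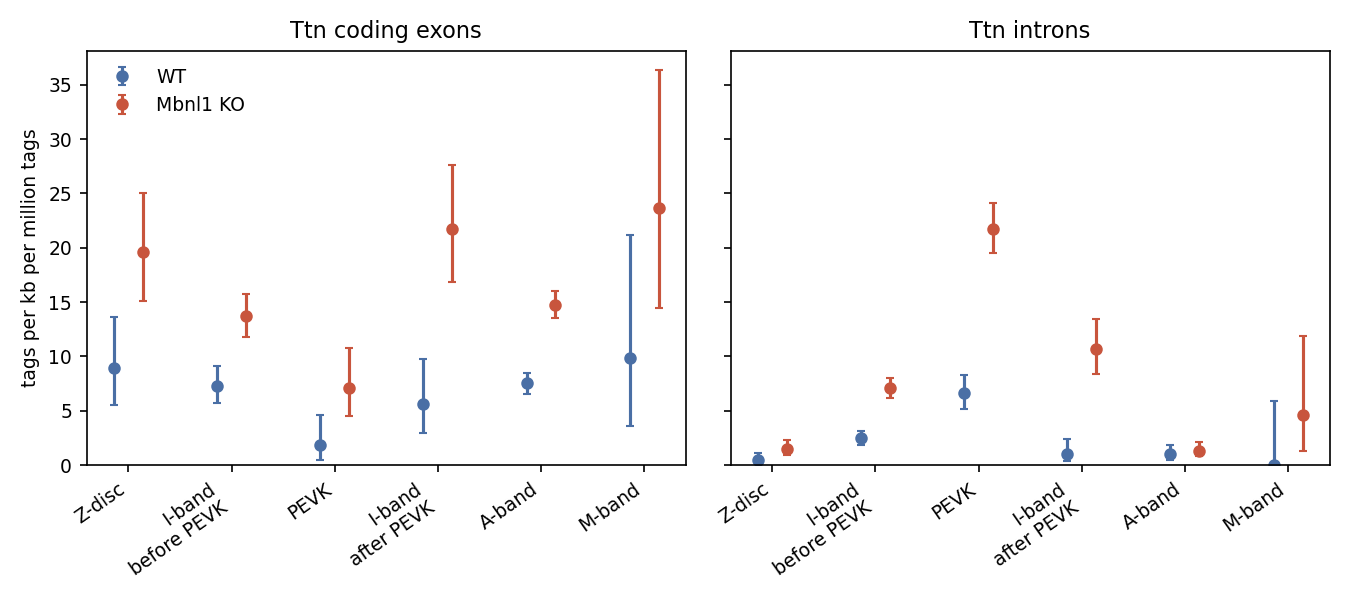
Density in normalised tags per kb (vertical) in the coding exons (left) and introns (right) of each sarcomere region, in WT (blue) and *Mbnl1* KO muscle (red). Points are the single value of each merged table and bars are 95% counting intervals; PEVK is lowest among coding exons and highest among introns in both.

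The *Mbnl1* KO/WT ratio was above 1 in the 6 regions and the 3′ UTR. For exons and introns together it was 2.70 (1.71 to 4.44) in the Z-disc part, 2.35 (1.90 to 2.91) in the I-band before PEVK, 3.34 (2.55 to 4.41) in PEVK, 5.73 (3.45 to 10.1) in the I-band after PEVK, 1.92 (1.60 to 2.31) in the A-band and 2.88 (1.15 to 8.63) in the M-band. The A-band interval lies below those of PEVK and of the I-band after PEVK, but with tags of at least 2 reads it overlaps that of PEVK (0.969 to 1.59 and 1.42 to 2.78), as it does over coding exons alone or introns alone. Over coding exons alone it also overlaps that of the I-band after PEVK (1.62 to 2.38 and 2.06 to 7.83). With tags of at least 2 reads the ratio was 1.33 (0.753 to 2.48) in the Z-disc part, 1.23 (0.969 to 1.59) in the A-band and 2.36 (0.696 to 12.5) in the M-band, and these 3 intervals include 1. Counted as reads in place of tags, the ratio fell below 1 in the A-band (0.512) and in the I-band before PEVK (0.919). Counted with the kinase exon, the M-band part had 17 WT and 61 *Mbnl1* KO tags and a ratio of 2.59 (1.49 to 4.72), a setting chosen after seeing the data. M-band introns, with 0 WT and 4 *Mbnl1* KO tags, gave no finite ratio. Over the other regions introns gave the widest range, from 1.30 (0.568 to 3.15) in the A-band to 10.2 (4.19 to 32.5) in the I-band after PEVK. Introns of the latter held 5 WT and 71 *Mbnl1* KO tags. Of these, all 5 WT and 47 *Mbnl1* KO tags lay in the intron after coding exon 224.

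Within the A-band, coding exon 308 (76574121 to 76591226), the largest of the gene at 17106 nt, held 41 WT and 152 *Mbnl1* KO tags, 6.98 and 18.6 normalised tags per kb (ratio 2.67, 1.88 to 3.87), while its ratio of reads was 0.793. Its tags were spread over 87 runs, the largest with 8 tags. The kinase exon 340 held 11 and 37 tags (2.42, 1.21 to 5.27). In the I-band, the longest coding exon before PEVK (coding exon 45, 2646 nt) held 0 WT and 4 *Mbnl1* KO tags, where 0 WT tags allow a normalised count of up to 8.73. The last exon of the short transcript Ttn-021 (76752001 to 76758520, 6520 nt), which ends titin within the I-band, held 2 and 7 tags. Both of these exons were thus thinly tagged beside exon 308, which all 3 full-length forms hold. Coding exon 45 is held by 2 of these forms, and the other exon ends a short transcript. How much RNA held either exon was not measured. Coding exons held by all 3 full-length forms had 7.65 and 16.1 normalised tags per kb, those held by 2 forms 6.18 and 12.02, and those held by 1 form, all of them in PEVK, 1.09 and 4.72, from 1 and 6 tags.

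Across the transcript, 121 of 346 coding exons carried a tag in WT and 187 in *Mbnl1* KO muscle, and 96 carried tags in both. Of 346 introns, 42 and 95 carried a tag, and 35 did so in both. Of the WT tags, 63.7% overlapped a *Mbnl1* KO tag, and 38.8% of *Mbnl1* KO tags overlapped a WT tag. Most tags of coding exons lay within the exon. Of 259 WT tags 12 ran over an exon edge (4.63%, 2.42 to 7.95), and of 749 *Mbnl1* KO tags 37 did (4.94%, 3.50 to 6.75). By edge, 2 WT and 25 *Mbnl1* KO tags ran over a 5′ splice site, and 10 and 14 over a 3′ splice site.

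Intronic tags gathered near exons in PEVK and not in the rest of the I-band. Over all *Ttn* introns, 59.4% of WT tags (50.5 to 67.8) and 57.0% of *Mbnl1* KO tags (52.9 to 60.9) lay within 200 nt of an exon, where 47.8% of intronic bases lie. In PEVK introns it was 85.7% (74.6 to 93.3) and 83.0%, against 61.6% of bases. In the I-band before PEVK it was 39.2% (25.8 to 53.9) and 37.3%, against 41.7% of bases. In PEVK the side after an exon held 55.6% of WT and 48.6% of *Mbnl1* KO intronic tags, against 31.05% of bases. Many of the 54 WT and 239 *Mbnl1* KO tags near PEVK exons lay in a few short introns. Those after coding exons 134, 136 and 138 measure 218, 185 and 202 nt, so all their bases lie within 200 nt of an exon. They held 4, 14 and 4 WT tags and 21, 42 and 24 *Mbnl1* KO tags. Of the 16 intronic sites, 9 lay within 200 nt of an exon, 5 of them no more than 30 nt after it.

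By distance, WT density was highest within 100 nt after an exon and *Mbnl1* KO density from 51 to 100 nt after it. In the first 50 nt after an exon, 29 WT and 102 *Mbnl1* KO tags gave 5.07 and 12.8 normalised tags per kb, and from 51 to 100 nt it was 5.08 and 15.8. In the last 50 nt before an exon, where the 3′ splice site lies, 1 WT and 26 *Mbnl1* KO tags gave 0.174 and 3.25. That was the lowest of the 6 bins within 200 nt of an exon in both tables. Tags were placed by their midpoint, and tags that touch an exon were left out, which lowers the bins of 1 to 50 nt on both sides. Over a 3′ splice site, 10 WT and 14 *Mbnl1* KO tags were left out in this way. From 51 to 100 nt before an exon, 14 and 66 tags gave 4.39 and 14.9. Farther away, the bin beyond 1000 nt after an exon also had many tags (14 and 63, at 4.17 and 13.5), in long introns that include the one with sites 3 and 9. From 501 to 1000 nt before an exon, 15 and 18 tags gave 3.97 and 3.44. That was the only bin with a ratio below 1 (0.865, 0.412 to 1.84). Beyond 1000 nt before an exon there were 0 and 12 tags.

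**Figure D5:**
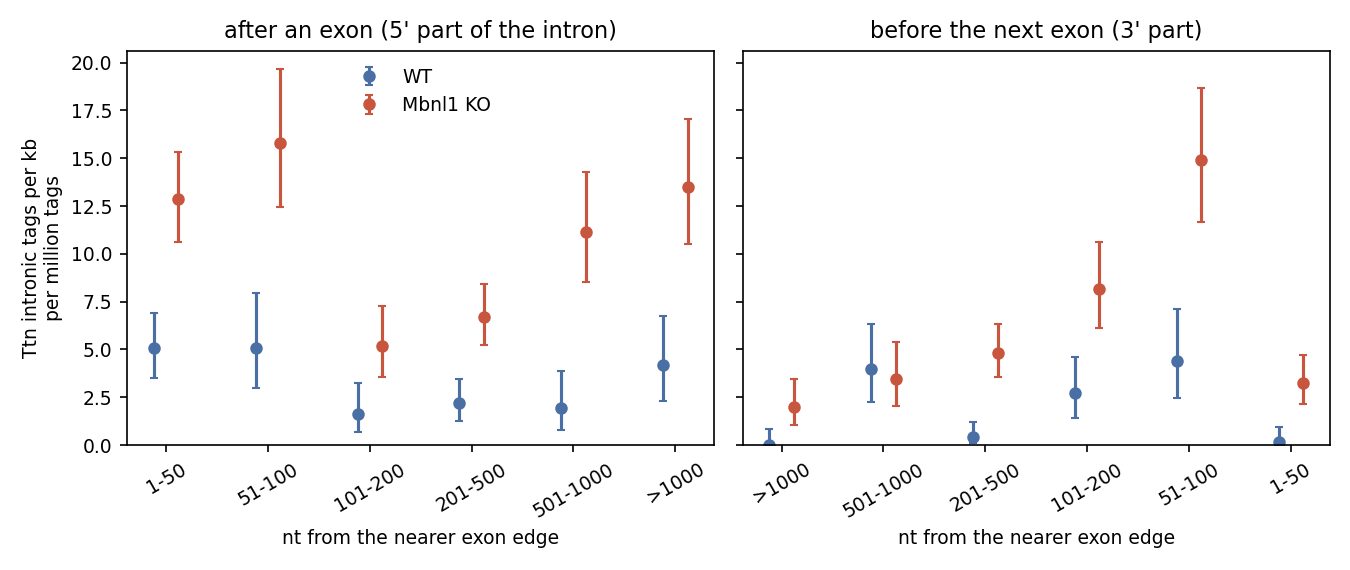
Density of intronic *Ttn* normalised tags per kb (vertical) by distance in nt from the nearer exon edge (horizontal), after an exon (left) and before the next (right), in WT (blue) and *Mbnl1* KO muscle (red), with 95% counting intervals. The bin of 1 to 50 nt before an exon is low beside the bin of 51 to 100 nt in both tables. Tags that touch an exon are left out, which lowers the bins of 1 to 50 nt.

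*Ttn* was set beside 3 other giant muscle transcripts, the thin filament ruler nebulin (*Neb*), the calcium release channel (*Ryr1*) and dystrophin (*Dmd*). *Neb* had 74 WT and 369 *Mbnl1* KO tags (3.59, 2.79 to 4.68), *Ryr1* 44 and 144 (2.36, 1.67 to 3.39) and *Dmd* 142 and 376 (1.91, 1.57 to 2.33). The intervals of *Ryr1* and *Dmd* include the median gene ratio of 1.75, and that of *Neb* lies above it. Per kb of coding sequence, *Ttn* had 7.14 and 14.9 normalised tags, *Neb* 4.88 and 13.7, *Ryr1* 2.12 and 4.17 and *Dmd* 0.527 and 1.14. Per kb of intron *Ttn* was also highest, at 2.39 and 7.84, beside 0.497 and 2.05 in *Neb*, 0.848 and 2.17 in *Ryr1* and 0.181 and 0.340 in *Dmd*. Introns make up 161.74 of 278.568 kb in *Ttn*, 175.783 of 202.152 in *Neb*, 106.45 of 121.812 in *Ryr1* and 2233.46 of 2257.27 in *Dmd*. The intronic share of tags, not corrected for this, was lowest in *Ttn*, where it was 31.4% and 39.8%. It was 40.5% and 46.6% in *Neb*, 70.5% and 76.4% in *Ryr1* and 97.9% and 96.3% in *Dmd*, and the intervals overlapped those of *Ttn* for *Neb* (29.3 to 52.6 and 41.4 to 51.8) and for neither *Ryr1* nor *Dmd*. On the opposite strand, *Ttn* had 13 WT and 10 *Mbnl1* KO tags (2.97% and 0.654% of tags on both strands), while *Dmd* had 145 and 117, 50.5% and 23.7%.

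Of 31 genes for proteins that bind titin or splice it, 21 had at least 20 tags, and 17 of these reached a ratio of at least 2, beside the 41.7% of all genes with that many tags. Their median ratio was 2.68, against 1.75 over all genes, and none was below 1. With single-base tags left out 9 of 20 partner genes reached 2, beside 29.2% of 3301 genes. With tags of at least 2 reads 5 of 18 did, beside 31.1% of 1741 genes, so the partners did not exceed other genes under that setting. By place in the sarcomere, it was 5 of 8 Z-disc partners, both of the N2A and N2B partners with enough tags, all 5 A-band partners, all 5 M-band partners and not the splicing regulator. The genes with the most tags were *Ldb3*, a PDZ-LIM protein of the Z-disc, with 94 WT and 390 *Mbnl1* KO tags (2.99, 2.38 to 3.79), the fast myosin heavy chain *Myh4* with 116 and 367 (2.28, 1.85 to 2.84) and *Myh1*, another fast myosin, with 66 and 253 (2.76, 2.10 to 3.68). At the M-band, the crosslinkers *Myom1* and *Myom2* had 27 and 99 tags (2.64, 1.71 to 4.21) and 12 and 49 tags (2.94, 1.54 to 6.08). Of the proteins that bind near the titin kinase, the autophagy adaptors *Sqstm1* and *Nbr1* had 21 and 110 (3.78, 2.35 to 6.34) and 6 and 26 (3.12, 1.26 to 9.28), and the ubiquitin ligase *Trim55* had 5 and 15 (2.16, 0.747 to 7.61). *Rbm20*, the regulator known to splice *Ttn*, had 22 and 44 tags (1.44, 0.846 to 2.53).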

How the data were processed

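Mbnl2 HITS-CLIP of quadriceps was read from a pair of tables, each pooling 3 mice of a genotype. The tables hold unique tags on mm9 that the authors obtained with BWA (version not given in the sources used here) after a quality filter, with likely PCR copies merged. The count that the authors deposited beside a tag gives its reads, not normalized. From these files, tags on the transcript strand were counted over NCBIM37 (mm9) with GENCODE vM1, using Python 3.11.15 with numpy 2.4.6, with pandas 2.3.3, and with scipy 1.17.1 for intervals. Figures were drawn with matplotlib 3.10.9. A tag went to the 3′ UTR first, then to the 5′ UTR, coding exon, exon of another transcript and intron. Sequences were read from the mm9 genome.

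Normalised counts are tags per 1000000 tags of the table. Shares and ratios have 95% Clopper-Pearson intervals, which cover counting error only. The depth of 343554 and 476543 tags limits ratios at sites with few WT tags. The counting was tested on simulated data. Described sites are the 10 with the most tags and those of at least 10 tags in a coding exon or the 3′ UTR. Described partners are the 3 with the most tags and M-band partners with at least 20. Sites 15, 18 and 19 and *Rbm20* were named after their values were seen. 1 other giant transcript is not reported here. The gene, regions and lists were chosen with earlier results of these data known. Alternatives covered scaling, single-base tags, reads per tag, duplicates, tag length, region edges, distance to exons and site definition. Of the region edges, only the end of the Z-disc part and the edges of the M-band part were moved. The edges of PEVK and the edge between I-band and A-band were not.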

Additional observations from a re-analysis of the deposited data

How the results depend on the processing

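No paired analysis was possible because the mice of each genotype are merged into 1 table, and for the same reason no mouse could be left out. Over 45 results, 291 alternative values were computed. Of these, 202 lay within the counting interval of the reported value (within 1.5 times for counts), some of them equal to it by construction, 88 lay outside and 1 reversed. Of 48 alternative *Mbnl1* KO/WT ratios of the gene body and its parts 47 were above 1, as were all 52 by sarcomere region. Read ratios of single regions, exon sets and sites were not among these. Below 1 lay those of the A-band, the I-band before PEVK and coding exon 308. So did those of coding exons held by 2 full-length forms (0.357) or by all 3 (0.655). The same held for coding exons of the I-band after PEVK (0.955) and for some sites. The ratio of the gene body was 1.78 with single-base tags left out, 1.59 with at least 2 reads per tag, 1.33 with both, 2.24 with tags of equal position collapsed, 2.17 when tags were collapsed by 5′ end, 5.83 for long tags (30 nt or more) and 3.58 as raw counts. In the same order, coding exons gave 1.42, 1.222 and 1.03, then 3.84 for long tags and 2.89 for raw counts. Introns gave 2.32, 2.26 and 1.91, then 2.65 with 5′ ends collapsed, 9.32 for long tags and 4.54 for raw counts. The 3′ UTR gave 1.83 with at least 2 reads, 1.53 with single-base tags also left out, 2.18 with 5′ ends collapsed and at least 21.5 for long tags, where WT had 0. The share of tags in the 3′ UTR was 6.83% (WT) and 7.98% (*Mbnl1* KO) once positions were collapsed, and 5.63% and 5.67% with 5′ ends collapsed. For long tags the WT share was 25.4% in introns and 0% in the 3′ UTR.

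Other settings were chosen after seeing the data. Scaling to the median gene gave 1.48 for the gene body, 2.07 for the 3′ UTR, 1.19 for coding exons and 1.88 for introns. Thinning *Mbnl1* KO reads to the WT total gave 4.42 for the gene body, 3.52 for coding exons and 5.86 for introns. Reads in place of tags gave 1.06, 1.90 for the 3′ UTR, 4.49 for introns and, reversed, 0.567 for coding exons. The cause was not tested.

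The I-band share was 30.9% and 33.6% (WT and *Mbnl1* KO) over coding exons alone, and 89.5% and 93.2% over introns alone. Within 100 nt of an exon lay 45.1% and 43.5% of intronic tags, and within 300 nt 66.6% in *Mbnl1* KO muscle. At least 20 tags left 8 sites. Sites with a ratio of at least 2 numbered 9 without single-base tags and 4 with at least 2 reads, when 8 of 8 sites were above 1, beside 71.4% of runs over the genome. The percentile of *Ttn* was 63.0 without single-base tags, and partner genes past a ratio of 2 numbered 9 of 20 without them and 5 of 18 with at least 2 reads.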

Other observations

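On the strand opposite to *Ttn*, 13 WT and 10 *Mbnl1* KO tags were counted, a ratio of 0.555 (0.218 to 1.37), while the gene's own strand had 2.58. Tags with a single read made up 42.5% of WT and 31.6% of *Mbnl1* KO tags of *Ttn*, against 79.0% and 59.5% of the whole tables. The median length of *Ttn* tags was 24 nt in WT and 31 nt in *Mbnl1* KO muscle. No cause of these differences was tested.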
